A study of Mus musculus with 2 samples.

Results

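5 long stretches in the interior of mouse chromosomes 2, 4, 5, 10 and 15 were described in 2 libraries of immunoprecipitated DNA from mouse embryonic stem (ES) cells. In mm9 coordinates (1-based) they are chromosome 5 from 111000001 to 147000000 (36 Mb), chromosome 15 from 72500001 to 98000000 (25.5 Mb), chromosome 4 from 128000001 to 145000000 (17 Mb), chromosome 2 from 163000001 to 174500000 (11.5 Mb) and chromosome 10 from 74000001 to 81500000 (7.5 Mb). They were chosen because the H2ABbd library was raised there relative to the 5mC library in 1 Mb windows, so the ratio of the libraries describes the choice and supports nothing. Together they hold 97500 bins of 1 kb, 3.69% of the 2638998 bins of chromosomes 1 to 19 and X. Each was set beside the rest of its own chromosome without the last 5 Mb, 600906 bins in all.

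The cells are pluripotent cells of the early embryo, kept undifferentiated by the cytokine LIF and grown without feeder cells, and no strain, sex or treatment is given in the sources used here. 1 library, labelled H2ABbd, came from formaldehyde-crosslinked chromatin sonicated to 200 to 400 bp and precipitated with a home-made rabbit antibody against mouse H2ABbd (ChIP-seq), with 20 cycles of PCR. The other, labelled 5mC, came from sonicated genomic DNA of 100 to 400 bp that was denatured and precipitated with the mouse monoclonal antibody 33D3 against 5-methylcytosine (MeDIP-seq), with 15 cycles. Each group has 1 library and no input library was used here, so no difference below has a replicate check and no test was run. All intervals (95%) cover counting error only, apart from the limits of the border fits, which were also widened for scatter between windows. The sample labels and the file names contradict each other on which library is which. The labels were followed, and every direction rests on them.

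H2ABbd, also called H2A.B, is a short variant of histone H2A that lacks the usual C-terminal tail. Nucleosomes that carry it wrap less DNA and are less stable than canonical ones, and the name, Barr body deficient, refers to its scarcity on the inactive X chromosome. 5-methylcytosine is the main DNA modification of mammals, lies mostly at CpG dinucleotides, and is read by MeDIP as precipitated fragments, so the signal grows with both the methylation and the number of CpGs in a fragment. Mammalian chromosomes alternate on the scale of megabases between gene-rich and gene-poor stretches. Genes, base composition and sequence of the segments were not analysed here, because the gene tables at hand are on another build than the reads.

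The library labelled H2ABbd held 1397289 distinct positions and the library labelled 5mC 8056333. Values are counts of distinct positions (reads that share chromosome, 5' end and strand count once). The ratio of the libraries is the share of all H2ABbd reads in a region over the share of all 5mC reads there, so that 1 is the level over the whole of both libraries. Inside the 5 segments lay 112034 H2ABbd reads (8.02% of that library) and 491204 5mC reads (6.10%).

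Both libraries were denser inside the segments than in the rest of the same chromosomes, and the library labelled H2ABbd by the larger factor. The segment on chromosome 10 held 1.46 H2ABbd reads per non-empty 1 kb bin (a bin with a read of either library) against 0.517 in the rest, 2.83-fold (2.77 to 2.89). Its 5mC density was 5.51 against 3.29, 1.68-fold (1.66 to 1.70). On chromosome 15 the H2ABbd density was 1.01 against 0.416, 2.44-fold (2.40 to 2.48), and the 5mC density 4.83 against 2.98, 1.62-fold (1.61 to 1.63). The other segments lay close together. H2ABbd was 2.30-fold denser on chromosome 4, 2.30-fold on chromosome 5 and 2.27-fold on chromosome 2, and 5mC was 1.63-fold, 1.60-fold and 1.56-fold denser. The H2ABbd counts entered the choice of the segments, so their rise was fixed by it. The name, raised H2ABbd, leaves out that the 5mC library was raised in every one of the 5 segments as well. Empty bins were rarer inside (2.83% against 13.5% of bins), and over all bins, empty ones included, the folds were 2.53 to 3.14 for H2ABbd and 1.74 to 1.88 for 5mC. The rest was counted from the first base of each chromosome. On chromosomes 2 and 4 no 1 Mb window before 3000001 had 500 non-empty bins, so that stretch adds empty bins to the rest. It widens the contrast in empty bins and the folds over all bins there. The part of empty bins in the densities was not tested.

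The ratio of the libraries in whole segments was 1.36 on chromosome 4 (1.34 to 1.38), 1.30 on chromosome 5 (1.29 to 1.31), 1.21 on chromosome 15 (1.19 to 1.23), 1.36 on chromosome 2 (1.34 to 1.39) and 1.53 on chromosome 10 (1.50 to 1.56). In the rest of these chromosomes it was 0.959, 0.907, 0.803, 0.937 and 0.908 in the same order. Relative to the rest, the ratio was thus 1.41 (1.39 to 1.44), 1.43 (1.41 to 1.45), 1.51 (1.48 to 1.54), 1.46 (1.43 to 1.48) and 1.69 (1.65 to 1.73). Chromosome 15 had the lowest ratio inside and also the lowest outside. The order of the segments in the relative value depends on the setting: over bins enriched in neither library chromosome 2 had the highest, 1.52, and chromosome 10 had 1.37. With all reads kept in place of distinct positions, the chromosome 2 value turned to 0.239. It was 1.58 with all reads kept and the 0.1% most covered bins left out.

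**Figure D1:**
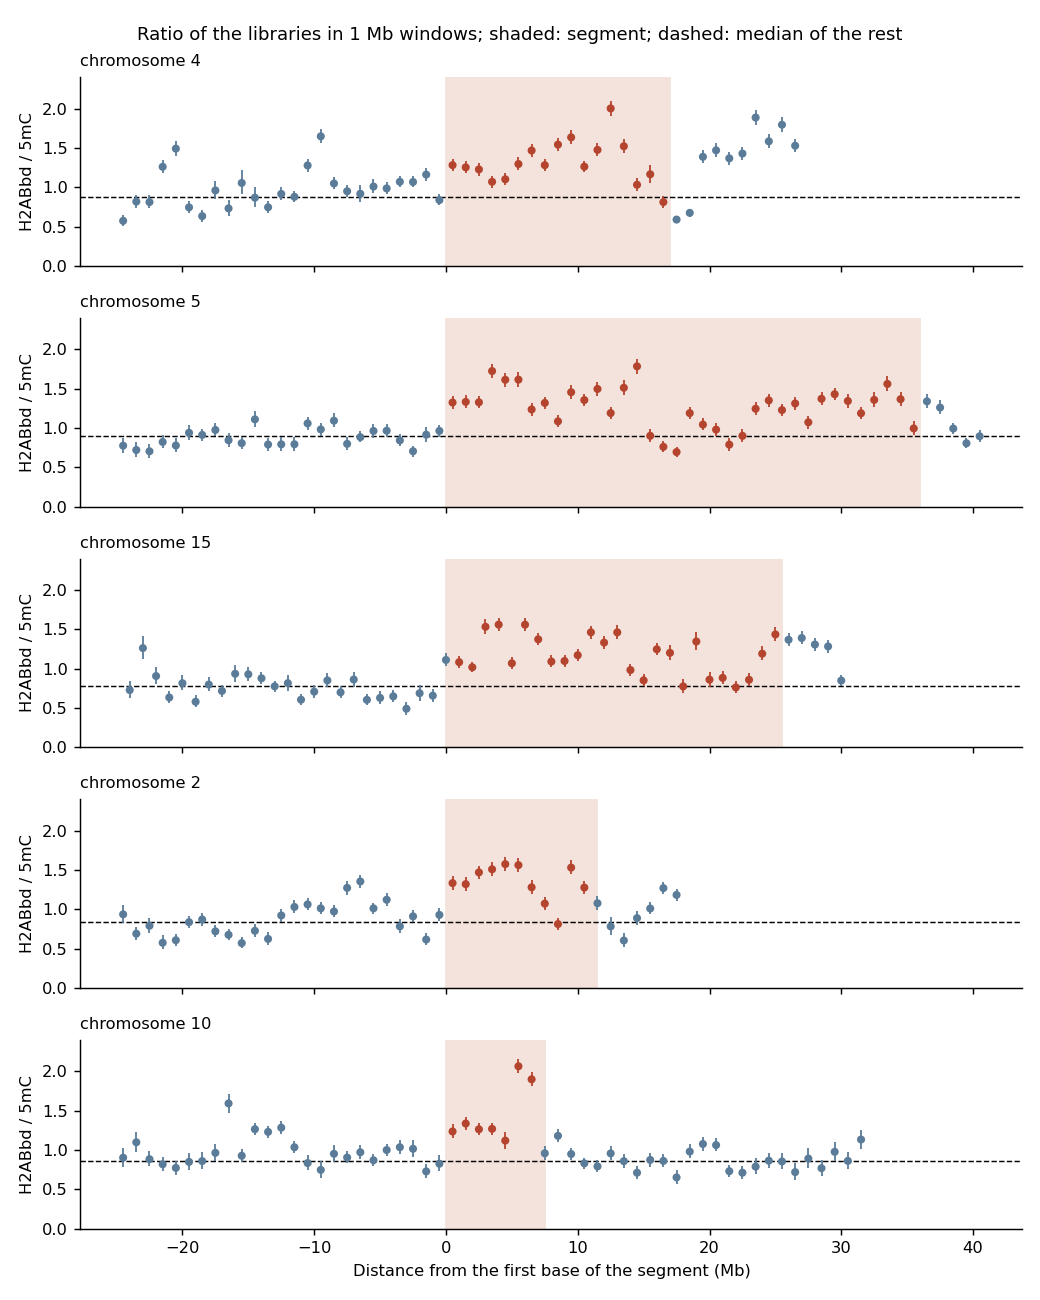
Ratio of the libraries (y axis) in 1 Mb windows against the distance from the first base of each segment in Mb (x axis), up to 25 Mb beyond the segment. Points are windows (red inside, blue outside or across a border), bars their 95% counting intervals, the shading marks the segment and the dashed line the median of the rest of the chromosome; 89 of 96 segment windows lie above that line, with low stretches on chromosomes 5 and 15.

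The 1 Mb windows showed how even the segments were. 96 windows aligned to whole megabases lay wholly inside. 89 of them (92.7%) had a ratio above the median of the rest of their chromosome, and 72 (75.0%) lay above its 90th percentile. Among all 704 windows of the 5 chromosomes, segments included, these shares were 57% and 20.9%. The ratio chose the segments, so nothing is read from these counts.

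On chromosome 10 the 7 windows ran from 1.12 to 2.06 with a median of 1.27, against a median of 0.865 over 113 windows of the rest. Its highest window, from 79000001 to 80000000, had 2637 H2ABbd and 7364 5mC reads, a ratio of 2.06 (1.97 to 2.16). The lowest adjoined it, from 78000001 to 79000000, with 540 and 2779 reads and a ratio of 1.12 (1.02 to 1.23). Neighbouring windows thus spanned the whole range of that segment.

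On chromosome 4 the 17 windows ran from 0.812 to 2.00 (median 1.28, rest 0.879). The highest, from 140000001 to 141000000, had 2277 and 6556 reads and a ratio of 2.00 (1.91 to 2.10), and the lowest, from 144000001 to 145000000, had 503 and 3570 reads and 0.812 (0.738 to 0.892). On chromosome 2 the 11 windows ran from 0.814 (171000001 to 172000000, 538 and 3812 reads) to 1.57 (167000001 to 168000000, 1769 and 6476 reads), with a median of 1.33 against 0.838. These segments each held 1 window at or below the median of the rest.

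The 2 longest segments were interrupted. On chromosome 5 the 36 windows had a median of 1.32 against 0.893, with a highest value of 1.78 (1.69 to 1.88) from 125000001 to 126000000. Directly above that window came 3 windows from 126000001 to 129000000 at 0.695 to 0.901, and 3 more from 131000001 to 134000000 at 0.789 to 0.980. Taken over all their reads these stretches had ratios of 0.781 and 0.895, where the rest of the chromosome had 0.907 over all reads (0.899 to 0.916) and 0.893 as the median window, so that the second did not differ from it beyond counting error. On chromosome 15 the 25 windows had a median of 1.17 against 0.778, and 4 adjoining windows from 92000001 to 96000000 lay at 0.762 to 0.884. Over all their reads these had 0.841, beside 0.803 (0.793 to 0.814) in the rest of chromosome 15, a difference that was not tested. The highest window of the chromosome 15 segment, from 76000001 to 77000000, reached 1.56 (1.48 to 1.65). In all, 16 of the 96 windows had a ratio of 1 or lower, a level chosen after the values were seen. The segments on chromosomes 5 and 15 thus hold runs of high windows with low stretches between them.

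The windows of a segment varied by more than counting error. The SD over windows of a segment was 0.233 to 0.368, while counting error alone gives 0.0421 to 0.0447. Windows are neighbouring pieces of 1 genome in 1 pair of libraries, so this SD is no replicate error.

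**Figure D2:**
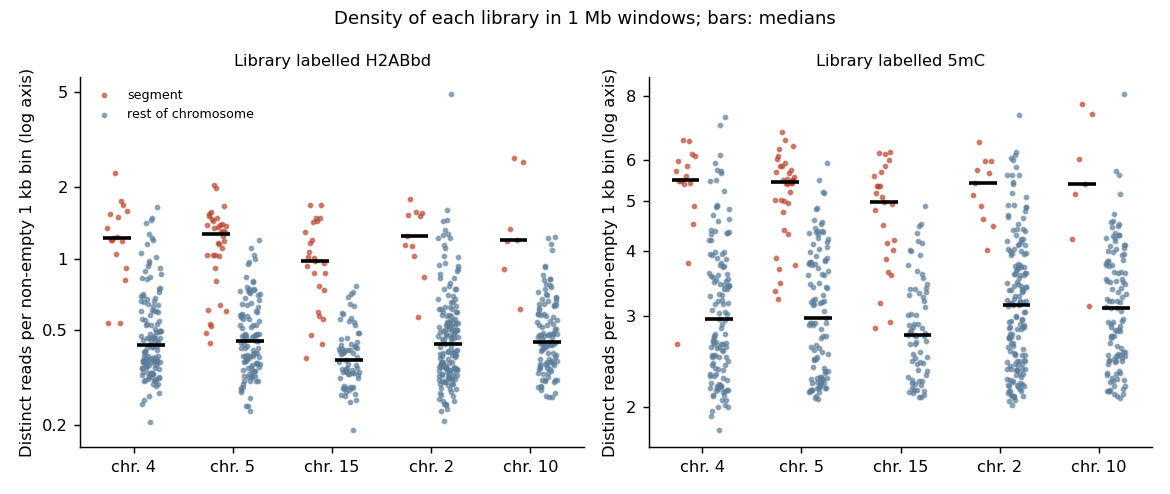
Distinct reads per non-empty 1 kb bin (y axes, log scale) of the library labelled H2ABbd (left) and the library labelled 5mC (right) in 1 Mb windows of each chromosome (x axis). Points are windows inside the segment (red) and in the rest (blue), and bars are medians; the segment medians lie 2.59 to 2.85 times above those of the rest for H2ABbd and 1.72 to 1.85 times for 5mC, and the ranges overlap on every chromosome.

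Read one library at a time, the window medians of the segments were 0.973 to 1.27 H2ABbd reads per non-empty bin against 0.375 to 0.450 in the rest, and 4.99 to 5.49 5mC reads against 2.76 to 3.15. The ranges of segment and rest overlapped in both libraries on every chromosome. On chromosome 15 18 of 25 windows had an H2ABbd density above the highest of the rest (0.767) and 14 a 5mC density above its highest (4.90). On chromosome 5 this held for 19 and 7 of 36. On chromosome 2 no window passed the highest of the rest, which for H2ABbd was 4.92 in a single deep window. Inside the low stretches both densities were lower than the medians of their segments. From 131000001 to 134000000 on chromosome 5 they were 0.535 (H2ABbd) and 3.45 (5mC), and from 92000001 to 96000000 on chromosome 15 0.512 and 3.51. The low stretches were picked by their ratio, so their lower H2ABbd relative to 5mC restates the pick.

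The ratio was highest in the windows of highest 5mC density, inside the segments and elsewhere, but did not rise evenly. Over the 96 segment windows the log2 ratio and the log2 5mC density had a Pearson r of 0.763 (Spearman rho 0.779), and over 2197 other autosomal windows 0.332 (0.292). Windows share libraries and neighbours, and the 5mC reads enter both measures, so these are descriptions. Of the segment windows 60 fell in the class of highest 5mC density (5.04 reads per bin or more), which held 151 of the other windows. In that class the median ratio was 1.36 in the segments and 1.23 in the other windows, whose 5 to 95% range was 0.760 to 2.06. In the class from 4.37 to 5.04 it was 1.17 (15 windows) against 1.04 (208 windows). In the class from 3.57 to 4.37 the medians were 0.884 (13 windows) and 0.895 (450 windows). Below that the order turned: segment windows had medians of 0.948 (6 windows, 2.92 to 3.57) and 0.970 (2 windows, 2.39 to 2.92), and other windows 0.812, 0.810 and, in the lowest class, 0.869. Within each class the medians of segments and other windows lay closer than the 1.28 and 0.876 over all windows, and 51 of the 60 segment windows of the highest class exceeded the median of the others there.

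**Figure D3:**
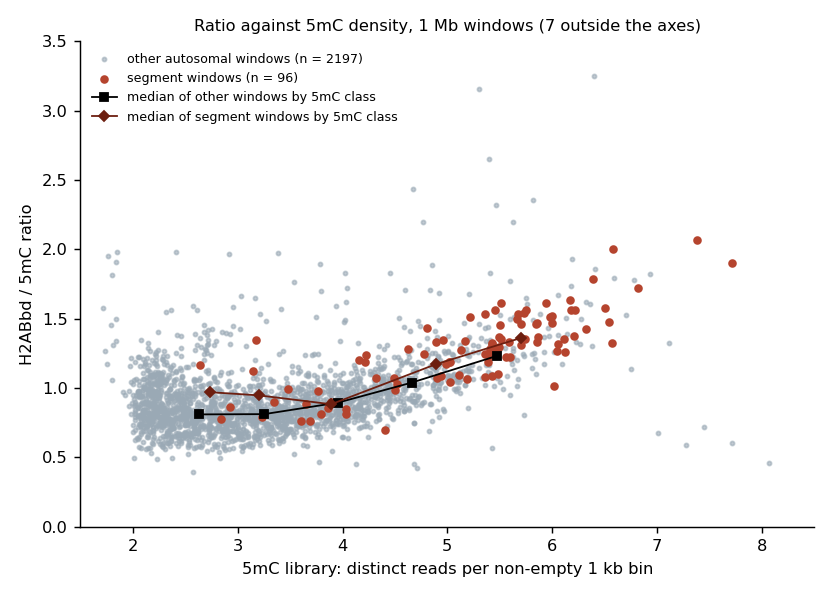
Ratio of the libraries (y axis) against the density of the 5mC library in reads per non-empty 1 kb bin (x axis) in autosomal 1 Mb windows. Red points are the 96 segment windows, grey points the 2197 other windows outside the last 5 Mb (7 of them beyond the axes), and the joined symbols are medians by class of 5mC density; segment medians run from 0.884 to 1.36 and those of the other windows from 0.810 to 1.23 over the classes that hold segment windows.

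Other long stretches of the autosomes reached like ratios. Counting adjoining windows above the autosomal median of 0.888, 17 runs were at least 10 windows long, and 5 of them held windows of the segments. They lay on chromosomes 4, 10 and 15 and on chromosome 5, there from 109000001 to 127000000 and from 133000001 to 150000000. The longest run with windows of the chromosome 2 segment had 9 windows. The 3 longest runs elsewhere were chromosome 1 from 143000001 to 196000000, chromosome 12 from 92000001 to 115000000 and chromosome 7 from 16000001 to 39000000, with median ratios of 1.33, 1.72 and 1.26. Their 5mC densities differed from those of the segments. On chromosome 1 the run, which reaches the last 5 Mb, had a 5mC density 0.839 times that of the rest of the chromosome and an H2ABbd density 1.32 times that of the rest. On chromosomes 12 and 7 5mC was 1.31 and 1.30 times as dense and H2ABbd 2.76 and 1.99 times. In the segments the same medians were 1.72 to 1.85 times (5mC) and 2.59 to 2.85 times (H2ABbd). These runs were picked by length from the same values and the differences were not tested. Windows in the terminal 5 Mb of autosomes, 95 in all, had a median of 1.01.

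Breadth was described on the same ratio that chose the segments, so the shares below are no support for it. In windows of 10 kb, 75.2% of 9682 segment windows (74.3 to 76.1%) had a ratio above the median of the rest of their chromosome, against 54% of all 10 kb windows of these chromosomes, segments included. The share was 80.5% on chromosome 2, 76.7% on chromosome 4, 75.3% on chromosome 10, 73.9% on chromosome 5 and 73.6% on chromosome 15. A 10 kb window held no H2ABbd read in 0.696% to 2.86% of cases inside and in 9.69% to 12.7% outside. The median was 7 to 10 H2ABbd reads per 10 kb inside and 2 to 3 outside, so that single 10 kb values carry a large counting error.

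Among non-empty 1 kb bins 51.2% of the segments and 29.5% of the rest held at least 1 H2ABbd read. At least 2 reads were found in 26.1% and 9.74%, at least 3 in 14.4% and 4.29%, and at least 4 in 8.61% and 2.30%. The fold between segments and rest grew from 1.73 to 3.75 along these thresholds. Leaving out the densest 1%, 5% and 10% of bins on either side changed the relative ratio of the 5 segments together from 1.43 to 1.52, 1.57 and 1.56. Over bins enriched in neither library it was 1.37 (1.36 to 1.38), and on chromosome 10 it fell from 1.69 to 1.37 (1.34 to 1.41).

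H2ABbd reads per bin were also set side by side at equal 5mC counts, where a higher value inside restates the choice by the ratio. Bins with 1 5mC read had 0.458 H2ABbd reads inside and 0.233 outside, 1.96-fold (1.90 to 2.04). With 3 5mC reads the values were 0.750 and 0.410, 1.83-fold, with 5 to 6 they were 1.20 and 0.722, 1.66-fold, and with 10 to 14 they were 2.38 and 1.78, 1.34-fold (1.31 to 1.37). On chromosome 10 the fold stayed between 1.74 and 1.96 over the classes from 1 to 14 5mC reads. Bins without a 5mC read, which count as non-empty only through an H2ABbd read, had 1.48 and 1.23, 1.20-fold. At 15 or more 5mC reads the order turned to 4.46 and 7.75, which without the 0.1% most covered bins was 3.17 and 2.91, 1.09-fold (1.04 to 1.14). A 5mC count of a single bin is itself a noisy measure at this depth, so bins of 1 class need not have the same underlying 5mC level.

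**Figure D4:**
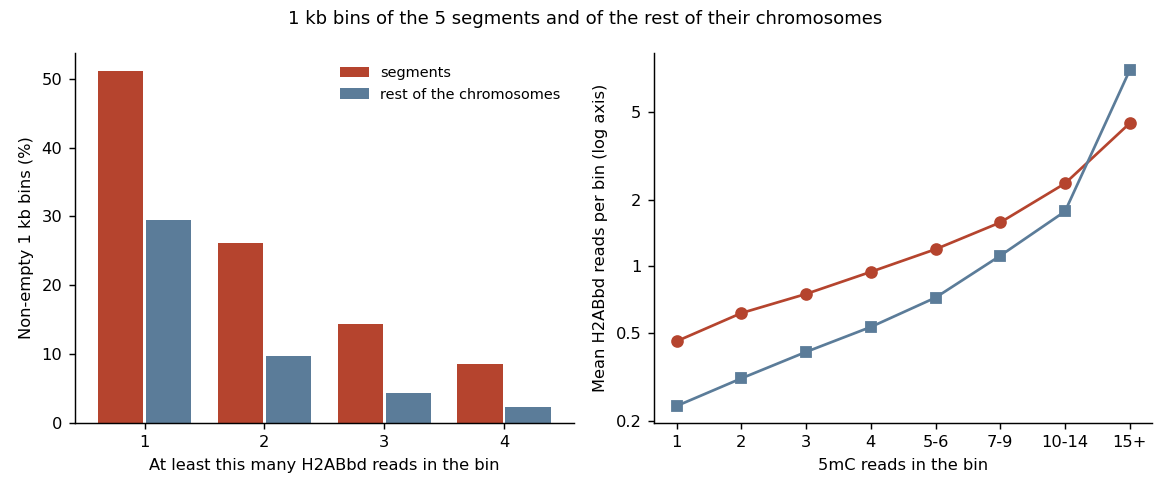
Left, percentage of non-empty 1 kb bins (y axis) with at least 1 to 4 H2ABbd reads (x axis) in the segments (red) and the rest of their chromosomes (blue). Right, mean H2ABbd reads per bin (y axis, log scale) by the number of 5mC reads in the bin (x axis); the segments lie above the rest from 0.458 against 0.233 up to 2.38 against 1.78, and below it in the last class, 4.46 against 7.75.

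Bins that stood out singly were also more frequent. Bins were counted as enriched when they held at least 4 times the mean of their chromosome and had a Poisson tail of at most 0.01 after adjustment, a filter on the bins of 1 library that tests no condition. On these chromosomes the lowest count called was 6 for H2ABbd, at chromosome means of 0.587 to 0.697. For 5mC it was 14 to 16, at means of 3.46 to 3.81. The rule thus asked a higher fold of H2ABbd bins, and calls of the libraries are not at like thresholds. The library labelled H2ABbd had 3290 enriched bins in the segments, 3.47% of their non-empty bins, where 1.18% of all bins of the genome were called. The segments had 34.7 per 1000 bins against 9.02 in the rest of the same chromosomes, 3.85-fold more (3.68 to 4.03). For 5mC there were 1232 such bins, 1.30%, where 0.508% of all bins were called, 3.70 times the rate of the rest (3.44 to 3.98). Calls against the chromosome mean follow the raised level of a segment. Against the higher of the chromosome mean and the mean of the surrounding 100 kb, 1010 and 228 bins passed, and the rates were 1.78 and 1.39 times those of the rest. A bin whose surroundings lay below the chromosome mean was still held to that mean. The density of each rest lay below it in both libraries, so these rates can still carry the raised level of the segments.

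The segment on chromosome 10 had the most enriched bins, 59.2 per 1000 for H2ABbd (53.9 to 64.8) and 29.9 for 5mC (26.1 to 34.0). Its rates were 7.28 and 6.72 times those of its rest. Chromosome 15 had the fewest in both libraries, 26.4 and 9.58 per 1000. Enriched bins held 38.1% of the H2ABbd reads of the chromosome 10 segment and 19.6% to 25.2% in the other segments. In all, 305 bins of the segments were enriched in both libraries, 9.27% of the H2ABbd calls and 24.8% of the 5mC calls. In the rest 451 were, 9.61% and 24.7%. The share of calls common to both libraries was thus nearly the same in segments and rest. Calls were more frequent inside, 34.7 against 9.02 per 1000 bins for H2ABbd and 13.0 against 3.52 for 5mC. Higher rates alone bring more common bins, so near-equal shares do not mean equal co-enrichment. The overlap from the rates alone was not computed.

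Most enriched H2ABbd regions were short. Single bins made up 77.0% (chromosome 10) to 92.9% (chromosome 2) of them, and the longest regions had 4 to 8 kb. The densest region of 2 kb or longer was on chromosome 15 from 91737001 to 91741000, with 281 H2ABbd reads, 114 times the chromosome mean (101 to 128), and 266 5mC reads, 18.4 times (16.3 to 20.8). It lay in the window from 91000001 to 92000000, which held 677 H2ABbd reads and had a ratio of 1.35 between neighbours at 0.775 and 0.861. On the same chromosome 75933001 to 75940000 had 286 reads, 66.3 times (58.8 to 74.5), and 176 5mC reads, 6.96 times. On chromosome 10 the densest lay from 80640001 to 80642000, with 88 H2ABbd reads (75.0 times, 60.1 to 92.3) and 85 5mC reads (12.3 times), and from 75773001 to 75776000, with 72 (40.9 times) and 54 (5.20 times). These 4 regions were high in both libraries.

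Elsewhere the densest H2ABbd regions were lower, and 3 of them did not exceed the chromosome mean in 5mC beyond counting error. Chromosome 4 from 143675001 to 143677000 had 27 H2ABbd reads (19.7 times, 13.0 to 28.7) and 2 5mC reads (0.272 times, 0.0330 to 0.983). Chromosome 5 from 141809001 to 141811000 had 31 (22.3 times) and 8 (1.05 times, 0.453 to 2.07), and from 139868001 to 139870000 36 (25.8 times) and 13 (1.70 times, 0.908 to 2.92). Chromosome 4 from 140562001 to 140564000 had 44 (32.2 times) and 22 (2.99 times), within the 1 Mb window of highest ratio on that chromosome. On chromosome 2 the regions from 167309001 to 167311000 and from 167801001 to 167804000 had 27 and 35 H2ABbd reads and 2.94 and 2.71 times the mean in 5mC, both in the highest window of that segment.

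The borders were compared in 1 Mb on either side. At all 5 lower borders (the end with the smaller coordinate) the ratio was higher inside. It was 1.21 inside and 0.673 outside on chromosome 15, 1.28 and 0.838 on chromosome 4, 1.24 and 0.827 on chromosome 10, 1.33 and 0.930 on chromosome 2, and 1.32 and 0.963 on chromosome 5. Inside over outside these steps were 1.79 (1.57 to 2.04), 1.53 (1.38 to 1.70), 1.50 (1.30 to 1.72), 1.43 (1.29 to 1.60) and 1.37 (1.24 to 1.52). Their sizes and order depend on the reach. Over 500 kb on either side the step was 1.91 on chromosome 4 and 1.06 on chromosome 5, and over 3 Mb 1.23 and 1.54. Both libraries were denser on the inner side of each lower border, from 0.379 to 1.06 H2ABbd and from 3.25 to 5.07 5mC reads per non-empty bin on chromosome 15.

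The upper borders differed among themselves. On chromosome 10 the ratio fell from 1.77 inside to 0.839 outside, a step of 2.11 (1.89 to 2.34), which exceeded 99.5% of the steps between adjoining 1 Mb windows of the autosomes. On chromosome 2 it was 1.19 inside and 0.953 outside, a step of 1.25 (1.10 to 1.41) that exceeded 67.7% of such steps. On chromosome 4 the last window inside was already low, at 0.812, and the first outside lower still, at 0.590 (0.543 to 0.641). That outer window had the highest 5mC density of any window in the rest of chromosome 4, 7.27 reads per bin, beside 0.744 H2ABbd reads, and the 3 windows from 147000001 to 150000000 had ratios of 1.37 to 1.47. At the upper borders of chromosomes 5 and 15 no fall was found over 1 Mb. On chromosome 5 the ratio was 0.995 inside and 1.34 outside (step 0.743, 0.664 to 0.831), and on chromosome 15 1.44 and 1.37 (step 1.05, 0.960 to 1.15). Over 3 Mb on either side these steps were 1.14 and 0.876, in the opposite direction at both. At both the rest ends there and the last 5 Mb of the chromosome begins within 1 Mb. The borders were placed on this ratio, so the steps describe the choice.

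**Figure D5:**
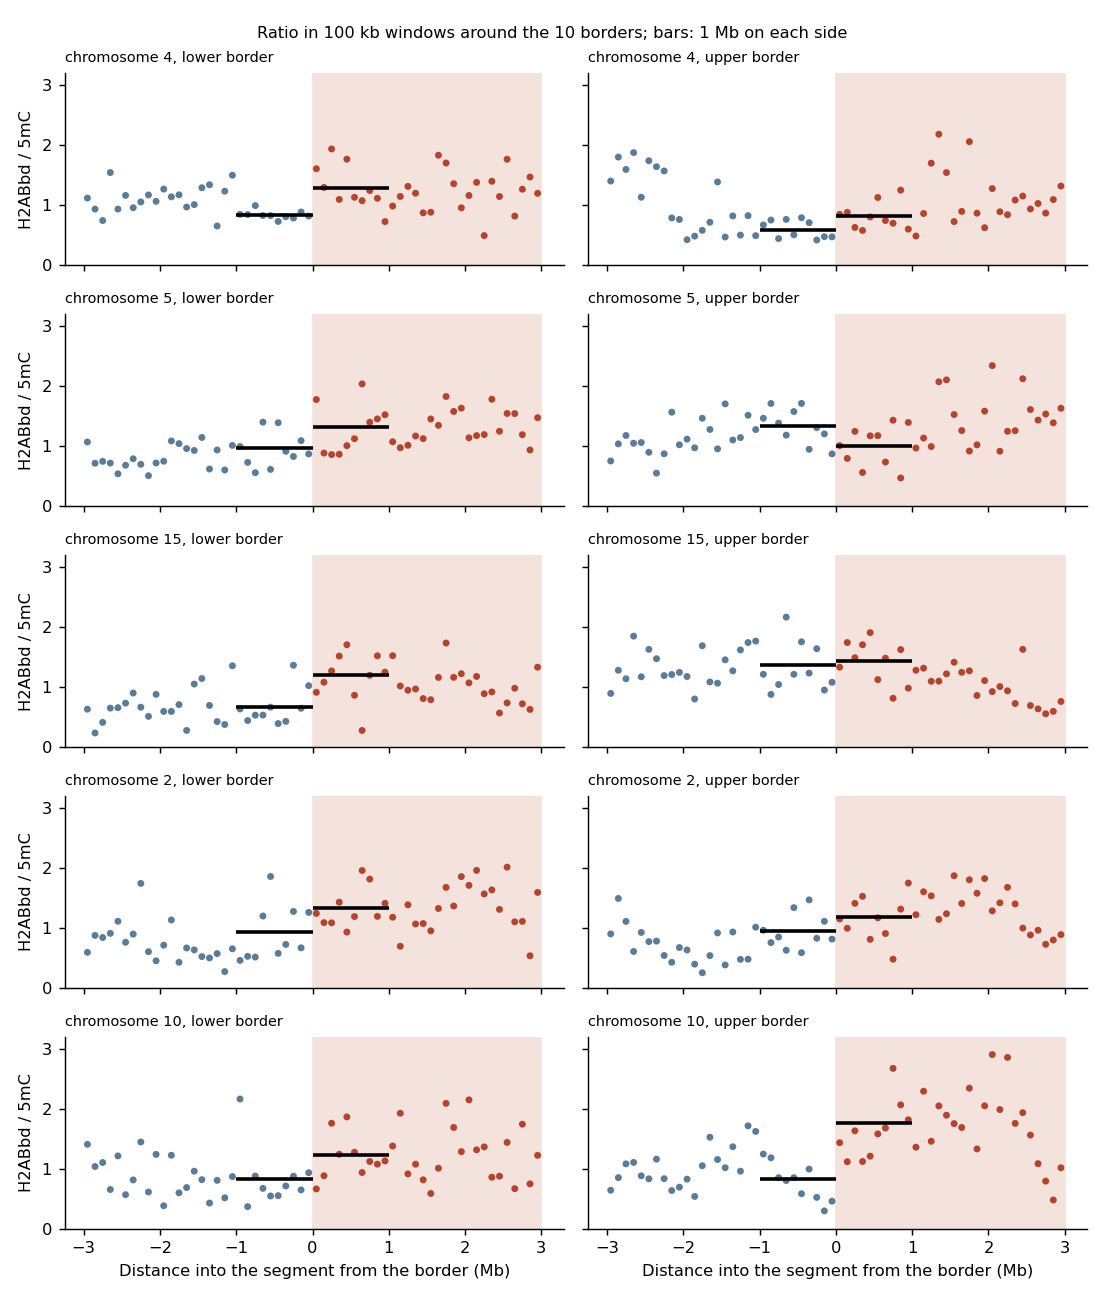
Ratio of the libraries (y axes) in 100 kb windows against the distance into the segment from each of the 10 borders in Mb (x axes, negative outside). Points are windows (red inside, blue outside) and bars the ratio over 1 Mb on each side; the clearest step is the upper border of chromosome 10 (1.77 inside, 0.839 outside), and over 1 Mb the upper borders of chromosomes 5 and 15 show no fall (steps of 0.743 and 1.05, inside over outside).

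A step or linear ramp between 2 levels was fitted to the 100 kb windows within 3 Mb of each border, with ramp widths from 0 to 4.0 Mb. Windows scattered 4.63 to 10.3 times more than binomial counts, and the limits below were widened for that. They treat adjoining windows as independent, so they may be too narrow. At 4 borders the fitted centre lay within 1 Mb of the stated border and the width was limited to 2 Mb or less. They were the lower borders of chromosomes 4 (width at most 1.1 Mb), 15 (at most 1.7 Mb) and 10 (at most 1.9 Mb) and the upper border of chromosome 10 (at most 1.2 Mb). The best value of the centre was counted here. Its limits ran from -0.3 to 1.6 Mb from the border at the lower border of chromosome 4, and stayed within 1 Mb at the others. At each of these 4 borders a width of 0, an abrupt change, also lay within the limits. At both borders of chromosome 2 all widths tried, from 0 to 4.0 Mb, lay within the limits. At its upper border the limits left out an abrupt change in 50 kb windows (0.7 to 4.0 Mb) and without the 0.1% most covered bins (0.3 to 4.0 Mb). In 200 kb windows and with fits within 5 Mb they did not. At the lower border of chromosome 5 the limits were 0.2 to 4.0 Mb, which leave out an abrupt change. They also left it out in 50 kb windows (0.9 to 4.0 Mb), in 200 kb windows (0.1 to 4.0 Mb) and with fits within 5 Mb (2.1 to 4.0 Mb). Without the 0.1% most covered bins they were 0 to 4.0 Mb. At the upper border of chromosome 4 the best change was a rise 2.0 Mb beyond the border, and at that of chromosome 15 a rise 2.0 Mb before it, both at the edge of the range searched. At the upper border of chromosome 5 a fall was placed 1.3 Mb before it. Fits within 5 Mb moved the centre there to 2.0 Mb beyond the border. They moved that of the upper border of chromosome 4 to 2.0 Mb before it. With fits within 5 Mb 1 border met both limits, and with 200 kb windows 2.

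Some properties that did not enter the ratio also differed between segments and rest. Outside the 0.1% most covered bins, 21.2% of the H2ABbd reads of the segments repeated a position and strand (21.0 to 21.4%), against 17.3% in the rest (17.2 to 17.4%). For 5mC it was 4.95% (4.89 to 5.01%) and 3.96% (3.93 to 3.99%). Both were higher inside on all 5 chromosomes. The share of repeats can grow with read density, which was also higher inside in both libraries, so it is not independent of the choice. The part of density in it was not tested. The share of distinct H2ABbd positions on the plus strand was 51.9% (51.6 to 52.2%) inside and 56.0% (55.8 to 56.1%) in the rest, and for 5mC 51.3% and 52.9%, in the same order on all 5 chromosomes. Counted on the plus strand the relative ratio was 1.35 to 1.62, and on the minus strand 1.50 to 1.77. The part of strand and repeats in the ratio was not tested beyond these values. The most frequent distance between H2ABbd read starts of opposite strands was 90 to 149 bp among the segments and 90 to 119 bp among their rests, with no common order over the 5 chromosomes. For 5mC it was 60 to 89 bp and 60 to 79 bp.

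Over 100 kb windows the libraries followed each other inside the segments, with a Pearson r of log2 density from 0.796 (chromosome 4, 170 windows) to 0.871 (chromosome 10, 75 windows). In the rest it was 0.607 (chromosome 15, 699 windows) to 0.780 (chromosome 2, 1617 windows), and on each chromosome lower than inside. The windows share libraries and the mappability of the region, and these values are descriptions. H2ABbd counts per window were also lower in the rest, where a larger counting error lowers r. The part of depth in the difference was not tested. The variance of H2ABbd counts over 1 kb bins, without the most covered bins, was 2.72 times the mean inside and 2.35 times in the rest. The mean was higher inside and this quotient can grow with the mean, so it does not compare unevenness between segments and rest.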

How the data were processed

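FastQC, Bowtie and the build mm9 are named per the submitters' processing notes, without versions or settings. Each regular line of the deposited files is an aligned read of 42 bp, and the deposited score column is 255 on every regular line and was not used. Irregular lines (8 for H2ABbd, 1 for 5mC) were left out. Distinct positions (3503839 reads at 1397289 positions, and 9266471 at 8056333) were moved 100 bp towards the 3' end and counted in 1 kb bins. Chromosome ends are the last covered base. Windows of 1 Mb needed 500 non-empty bins, and those of 10 kb 5. Intervals are Clopper-Pearson, Poisson, or, for ratios of 2 ratios, normal on the log scale, in place of the exact ones planned. PCR reads are not independent molecules, so intervals cover counting error only.

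Enriched bins used a Poisson tail over the mean of non-empty bins, Benjamini-Hochberg over 2299806 bins. Fit and calls were tested on simulated data, where the true ramp width lay within its limits in 28 of 30 simulated borders. The simulated windows were independent of each other and held 1 change, centred on the border. Real windows need not be so, and the simulation does not vouch for the limits at the real borders. Segments, tests and 25 alternatives were chosen with earlier results of these data known, and 2 alternatives later. Regions named are, per segment, the lowest and highest 1 Mb window, both sides of each border and the 2 densest enriched H2ABbd regions of 2 kb or longer; low stretches and runs were named after their values were seen. Python 3.11.15, numpy 2.4.6, scipy 1.17.1, pandas 2.3.3 and matplotlib 3.10.9 were used.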

Additional observations from a re-analysis of the deposited data

How the results depend on the processing

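No paired analysis was possible because each group has 1 library. With 1 library a group the intervals cover counting error only, and single 1 kb bins are too shallow in the library labelled H2ABbd to be compared. The segments were chosen on the ratio of these same reads, so a relative ratio above 1 under other settings is no support. The value for all 5 together sums the counts of the single segments and is not a separate result. The relative ratio of each segment and of all 5 together stayed above 1 in 64 of 66 values over 11 alternatives, between 1.22 and 1.77. The exceptions came with all reads kept, 0.239 on chromosome 2 and 0.458 for all 5 segments together. There the values were 1.57 on chromosome 15 and 1.73 on chromosome 10.

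Values that left their counting interval follow, in the order of chromosomes 4, 5, 15, 2 and 10 where 5 are given. Without the 0.1% most covered bins the relative ratio was 1.48 (chromosome 4), 1.46 (5), 1.55 (2) and 1.63 (10). With the last 5 Mb counted to the rest it was 1.34 (4) and 1.42 (15). Against the rest within 10 Mb alone it was 1.22 (4), 1.39 (5), 1.61 (15) and 1.35 (2). On the plus strand it was 1.35, 1.36, 1.42, 1.39 and 1.62, on the minus strand 1.50, 1.53, 1.64, 1.54 and 1.77, and over bins with a 5mC read 1.47, 1.49, 1.58, 1.51 and 1.75. Of the alternatives added after seeing the data, all reads without the most covered bins gave 1.55 (4), 1.52 (5), 1.57 (15) and 1.58 (2), and bins enriched in neither library gave 1.38, 1.36, 1.40, 1.52 and 1.37. Thinning the 5mC library and counting reads unshifted kept all 5 within their intervals.

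The share of 10 kb windows above the median of the rest was 69.8% in 5 kb windows, 82.8% in 50 kb windows and 68.7% with the 5mC library thinned. The number of enriched bins in the segments was 863 (H2ABbd) and 379 (5mC) at an adjusted 1e-05, 1010 and 228 with the local mean as well, and 69 for 5mC at 8-fold or more. Their rate stayed above that of the rest in all 5 alternatives, at 1.78 to 4.14 times (H2ABbd) and 1.39 to 4.09 times (5mC). These rates follow the raised level of the segments, and with the local mean they can still carry part of it. The number of borders with a centre within 1 Mb and a width of at most 2 Mb was 2 in 200 kb windows and 1 with fits within 5 Mb, where it was 4. The cause of these changes was not tested.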
